A study of Mus musculus with 8 samples.

Results

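Inflammasome sensors and effectors were followed in macrophages of the mouse peritoneal cavity that were wild type or carried a knockout of Men1. The genes were picked by symbol from the deposited count table: Nlrp3, Nlrp1a, Nlrp1b, Nlrp1c-ps, Nlrc4, Naip2, Naip5, Pycard, Casp1 and Gsdmd, which are 10 of its 54532 gene rows. All 10 had a row and passed the filter on low counts. Every animal had received thioglycollate broth, an irritant that recruits leukocytes into the cavity. Men1 encodes menin, a scaffold of histone methyltransferase complexes. Wild-type animals (WT) and knockouts (KO) gave 3 M_WT, 3 M_KO, 1 F_WT and 1 F_KO libraries, named here by group and animal number; the letters M and F are not spelled out in the labels. The sources used here do not give strain, age, the interval after the broth or the cells in which Men1 was deleted.

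Inflammasomes are complexes assembled in the cytosol when a sensor meets a microbial product or a sign of cell damage. The sensor recruits caspase-1, often through the adaptor ASC, and caspase-1 then matures interleukin-1β and interleukin-18 and cuts gasdermin D, whose freed end forms pores in the plasma membrane. Macrophages are the cell in which most of these steps were worked out. In mice the Nlrp1 and Naip sensors are encoded in clusters of related genes that differ between inbred strains, and Naip proteins act through Nlrc4.

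Total counts ran from 18206427 to 22853583 per library. Men1 itself, the check of the labels, was at 21.5 ± 4.35 CPM (counts scaled to library size by TMM) in M_WT and 7.67 ± 1.01 CPM in M_KO (SD, n = 3 each), with F_WT at 17.95 CPM and F_KO at 11.8 CPM, so transcript remained in every KO library. Of the macrophage markers, 7 of 7 were measured, with a summed level of 14458.8 to 25458.8 CPM per library. Neutrophil markers summed to 4.43 to 18.5 CPM, T cell markers to 0.608 to 3.23 CPM, eosinophil markers to 0.456 to 2.11 CPM, mast cell and basophil markers to 1.58 to 22.5 CPM, dendritic cell markers to 12.25 to 41.98 CPM and B cell markers to 124.1 to 626.7 CPM. In bulk samples, fewer cells of a type and less RNA per cell cannot be told apart.

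Levels between genes were compared per gene length. On the scale of the deposited FPKM values, Nlrp3, the sensor of potassium loss and membrane damage, was the most abundant of the 10, with a median of 91.9 FPKM and a range of 63.6 to 116.0 FPKM over the 8 libraries. The effector Gsdmd (median 45.6, range 41.2 to 57.7 FPKM) and the protease Casp1 (median 39.7, range 23.5 to 56.1 FPKM) followed, and their ranges overlapped. Naip2, a sensor of the rod of bacterial secretion systems, had a median of 18.2 FPKM (16.0 to 27.3) and Pycard, which encodes the adaptor ASC, 13.7 FPKM (7.09 to 19.9). Naip5, a flagellin sensor (6.59 FPKM, 4.27 to 13.3), and Nlrc4, its partner (5.83 FPKM, 4.73 to 8.58), overlapped too. The Nlrp1 genes lay below all of these: the median was 0.768 FPKM for Nlrp1c-ps, 0.541 FPKM for Nlrp1b and 0.174 FPKM for Nlrp1a, and the highest value of any of them was 1.31 FPKM. Nlrp3 did not overlap with Gsdmd, Nlrc4 did not overlap with the Nlrp1 genes, and Nlrp1b (lowest 0.465 FPKM) did not overlap with Nlrp1a (highest 0.412 FPKM). The other pairs of neighbours in this order overlapped.

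**Figure D1:**
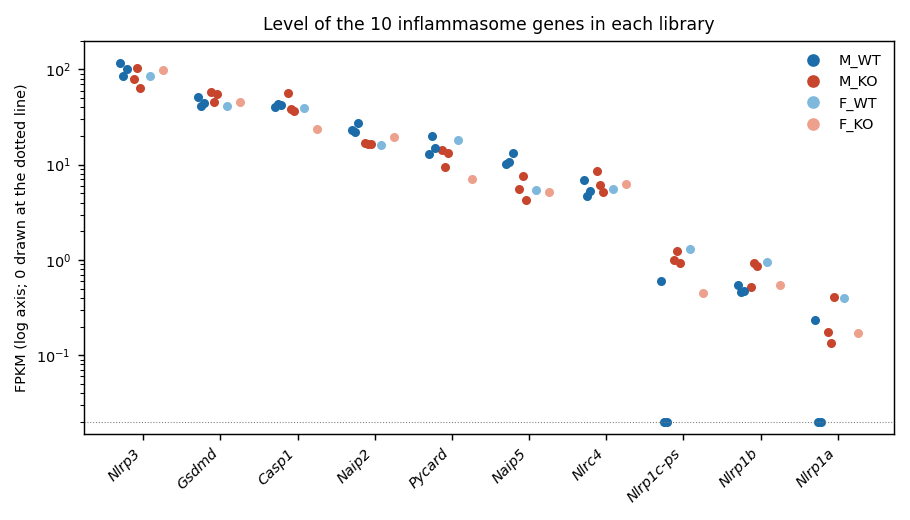
FPKM (log axis, vertical) of the 10 genes (horizontal, ordered by median) in each of the 8 libraries, 1 point per library, coloured by group, with values of 0 drawn on the dotted line. Nlrp3 sits highest, at 63.6 to 116.0 FPKM, and 2 M_WT libraries fall to 0 for both Nlrp1a and Nlrp1c-ps.

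The first comparison was M_KO against M_WT. edgeR called 0 of the 10 genes at an adjusted p under 0.05, where it called 0.022% of all 13646 genes tested, and 2 of the 10, Naip2 and Naip5, had an unadjusted p under 0.05, where 9.56% of all genes did. DESeq2 called 1 of the 10, Naip5, which was lower in M_KO, against 1.21% of all genes. For Men1 itself the edgeR log2 fold change was -1.49, with an adjusted p of 0.284 by edgeR and 4.45e-06 by DESeq2. A gene that edgeR did not call here is thus not shown to be unchanged. In the authors' deposited table, none of the 10 has an adjusted p under 0.05, and the lowest is that of Naip5 (0.107). The M_KO and M_WT libraries did not overlap for 3 genes, Naip2 and Naip5 (lower in M_KO) and Nlrp1c-ps (higher), where 16.2% of all genes did not overlap (7.15% lower and 9.0% higher in M_KO). The fitted value was lower in M_KO for 4 genes and higher for 6, with a median log2 fold change of 0.14, beside 0.01 over all genes tested. The animal numbers differ between libraries, and nothing says that the animals were handled separately, so the p-values measure the spread between these libraries.

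**Figure D2:**
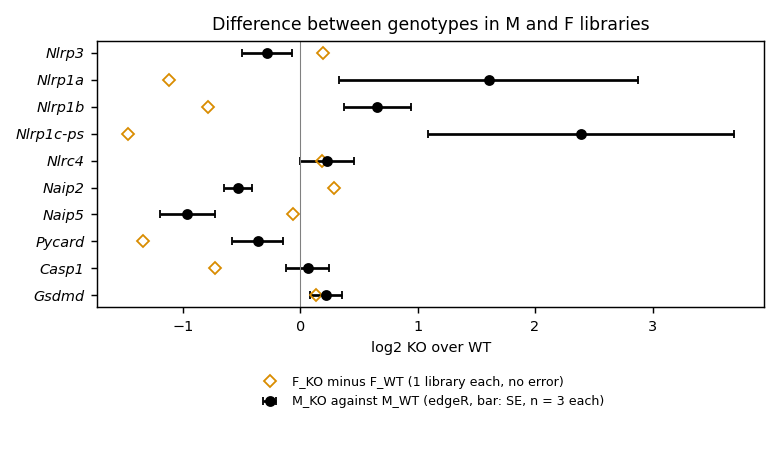
Log2 KO over WT (horizontal) of each of the 10 genes (vertical): black circles are edgeR log2 fold changes of M_KO against M_WT with their standard error (3 libraries each), orange diamonds are F_KO minus F_WT from 1 library each. Naip5 is at -0.96 and Naip2 at -0.53 in M, and the widest errors belong to Nlrp1a and Nlrp1c-ps.

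Nlrp1a, Nlrp1b and Nlrp1c-ps lie next to each other on the minus strand of chromosome 11 (GRCm38). Nlrp1b, the sensor that anthrax lethal factor cleaves, spans 71153102 to 71230733 (ENSMUSG00000070390). Nlrp1a, a related sensor gene, spans 71092236 to 71144704 (ENSMUSG00000069830), and Nlrp1c-ps, a transcribed pseudogene, spans 71242430 to 71285232 (ENSMUSG00000092528). The promoters of Nlrp1a and Nlrp1b are shown because the 2 genes differ in which animals express them. Each is the 250 bases before the start of transcription in RefSeq (GRCm38.p6, minus strand, chr11:71144705-71144954 for Nlrp1a and chr11:71230734-71230983 for Nlrp1b, the one of its 2 listed starts that opens the longest gene model), and the capitals mark a match to GAGGAAGT, a binding sequence of the macrophage factor PU.1.
Nlrp1a: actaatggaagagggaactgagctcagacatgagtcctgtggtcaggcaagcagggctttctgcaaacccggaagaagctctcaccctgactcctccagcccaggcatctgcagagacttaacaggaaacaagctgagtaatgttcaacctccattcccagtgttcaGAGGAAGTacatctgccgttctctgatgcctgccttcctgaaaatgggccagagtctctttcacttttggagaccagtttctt
Nlrp1b: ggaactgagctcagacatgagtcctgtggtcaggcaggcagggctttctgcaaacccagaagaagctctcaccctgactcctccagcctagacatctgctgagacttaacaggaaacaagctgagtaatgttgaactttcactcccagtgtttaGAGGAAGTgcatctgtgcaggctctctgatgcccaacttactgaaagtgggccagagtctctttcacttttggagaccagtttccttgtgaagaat
Over 237 aligned bases the 2 promoters were 91.6% identical, and each held this match on its own strand, starting 83 bases before the Nlrp1a start and 96 bases before the Nlrp1b start. Searched on both strands, GAGGAAGT occurred in 2.44% of the 32851 promoters of that length. Of the 10 genes, 8 had a promoter in the table, and among those Pycard also held it. Also searched were an interferon response sequence (GAAA followed by GAAA after 2 bases of any kind, in 2.98% of promoters), an NF-kB sequence (GGGA followed by TCC after 3 bases of any kind, 3.86%) and the TATA box sequence TATAAA (12.4%). These letters were in neither promoter printed here, and of the 8 genes only Naip5 held 1 of them, TATAAA. That match was on the strand opposite to the gene and began 236 bases before its start.

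Nlrp1c-ps was present in 6 libraries and absent from the other 2. It was at 2.07 CPM in M_WT_5643, 3.46, 4.34 and 3.28 CPM in M_KO_5944, M_KO_5645 and M_KO_5642, 4.56 CPM in F_WT_5638 and 1.59 CPM in F_KO_5639, with 33 to 106 counts each. In M_WT_6258 and M_WT_6255 it had 0 counts, which allows up to 0.160 and 0.152 CPM (3 counts; counting error only). The 6 libraries with counts were at least 9.93-fold to at least 28.6-fold higher than the larger of these limits. Wild-type animals were thus found on both sides.

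Nlrp1a showed the same 2 libraries at 0 counts. It was at 0.988 CPM in M_WT_5643, 0.737, 0.568 and 1.74 CPM in M_KO_5944, M_KO_5645 and M_KO_5642, 1.68 CPM in F_WT_5638 and 0.721 CPM in F_KO_5639, from 11 to 44 counts, and at least 3.56-fold to at least 10.9-fold above the limit in those libraries. Nlrp1b, which lies between them, was detected in all 8. It was at 3.41, 2.93 and 3.04 CPM in M_WT_5643, M_WT_6258 and M_WT_6255, at 3.29, 5.99 and 5.52 CPM in M_KO_5944, M_KO_5645 and M_KO_5642, at 6.03 CPM in F_WT and at 3.46 CPM in F_KO. Its 3 highest libraries thus held 1 F_WT and 2 M_KO animals, and M_KO_5944 lay within the M_WT range.

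**Figure D3:**
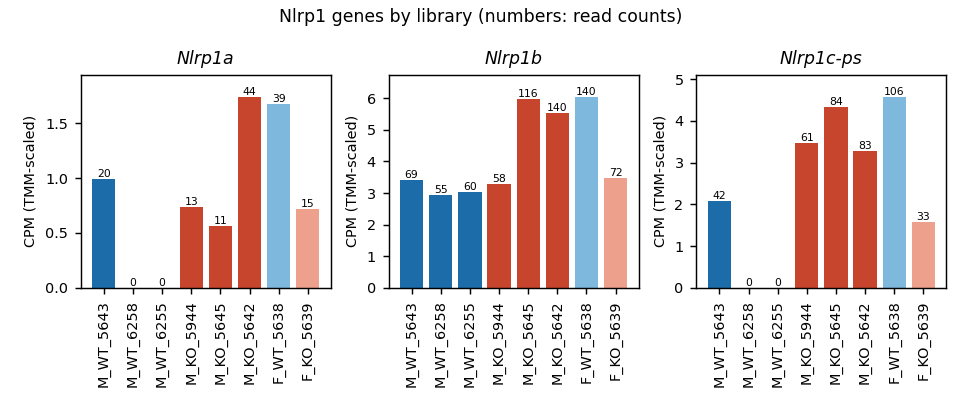
TMM-scaled CPM (vertical) of Nlrp1a, Nlrp1b and Nlrp1c-ps in each of the 8 libraries (horizontal), with the read count over each bar and the colour giving the group. M_WT_6258 and M_WT_6255 have 0 counts of Nlrp1a and Nlrp1c-ps and 55 and 60 counts of Nlrp1b.

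The 2 libraries at 0 are both M_WT, and the M_WT value of both genes rests on M_WT_5643. Nlrp1c-ps averaged 0.691 ± 1.20 CPM in M_WT and 3.69 ± 0.57 CPM in M_KO (SD, n = 3 each), with a log2 fold change of 2.39 (SE 1.30) and an edgeR adjusted p of 0.592. Without M_WT_5643, the M_WT group is at 0 throughout and edgeR called the gene (adjusted p = 0.0491), while leaving out any other M library gave an adjusted p of 0.556 to 0.928. Nlrp1a averaged 0.329 ± 0.570 and 1.01 ± 0.63 CPM (log2 fold change 1.60, SE 1.27, edgeR adjusted p = 0.702). With 1 M library left out, the log2 fold change ran from 0.94 to 7.38 for Nlrp1a and from 1.80 to 9.22 for Nlrp1c-ps, both highest without M_WT_5643, where the fitted value depends on the prior count. For Nlrp1b the means were 3.12 ± 0.25 and 4.94 ± 1.44 CPM (log2 fold change 0.66, SE 0.28, edgeR adjusted p = 0.533). In the F pair all 3 genes had the lower level in the KO animal, with log2 differences of -1.12 for Nlrp1a, -0.78 for Nlrp1b and -1.47 for Nlrp1c-ps. The interaction of genotype and letter was -2.82 for Nlrp1a, -1.46 for Nlrp1b and -3.91 for Nlrp1c-ps on the log2 scale. It rests on 1 F_WT and 1 F_KO library, so it cannot tell whether the M and F differences are alike.

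A gene was described as on in some animals and off in others when its highest level was at least 1 CPM and the largest step between neighbouring libraries, ranked by CPM + 0.1, was at least 4-fold. Nlrp1c-ps (16.9-fold step) and Nlrp1a (6.68-fold step) met this, and the other 8 genes did not, with steps of 1.09-fold to 1.58-fold. Both steps start from 0 counts, so their size depends on the 0.1 that was added. Against the limit of 3 counts, the lowest library with Nlrp1a counts, M_KO_5645, was at least 3.56-fold higher. Over all 13682 genes that reached 1 CPM, 185 met it (1.35%), and 0 of these split the 8 libraries exactly by genotype. The split of the 2 Nlrp1 genes was shared by 20 genes including themselves: 6 on chromosome 11, 4 each on chromosomes 3 and 7, 3 on chromosome 1 and 1 each on chromosomes 2, 13 and 14. A further 11 genes showed the reverse, being on only in M_WT_6258 and M_WT_6255. Within 1 Mb of Nlrp1a, 36 other genes reached 1 CPM, and Nlrp1c-ps was the only one of them with an on and off pattern.

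Among genes with a mean log2 CPM of at least 0, those closest in pattern to Nlrp1a over the 8 libraries were Zfp429 on chromosome 13, Gm7324 on chromosome 14 and Gm44751 on chromosome 7. Their root mean square differences from Nlrp1a, after centring log2(CPM + 0.1) of each gene, were 0.53, 0.58 and 0.64. For Nlrp1c-ps the closest were Sycp1 on chromosome 3 (0.63), Gm7324 (0.72) and Zfp429 (0.81). The 2 Nlrp1 genes differed from each other by 0.88 on this measure, and Nlrp1b from them by 1.33 and 1.93. Sycp1, for example, was at 0 in M_WT_6258 and M_WT_6255 and at 3.47 to 5.10 CPM in the other 6 libraries.

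The transcripts of the 3 Nlrp1 genes are related but rarely identical over 100 bases. Nlrp1a and Nlrp1b were 86.5% identical over 3526 aligned bases of coding sequence (GENCODE M21), and 3 of 3804 stretches of 100 bases in the Nlrp1a transcript occurred unchanged in a Nlrp1b transcript. Between Nlrp1c-ps and Nlrp1a or Nlrp1b 0 such stretches were shared, with identities of 88.1% and 85.2%. Read length and the handling of reads with several matches were not given in the sources.

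Naip2 and Naip5 were lower in all 3 M_KO libraries than in all 3 M_WT libraries. Naip2 (ENSMUSG00000078945, chromosome 13, 100144063 to 100202092, minus strand) was at 112.9, 106.6 and 133.8 CPM in M_WT_5643, M_WT_6258 and M_WT_6255. It was at 82.5, 81.8 and 81.0 CPM in M_KO_5944, M_KO_5645 and M_KO_5642. F_WT, at 78.0 CPM, was the lowest library of all, and F_KO was at 94.97 CPM, so over all 8 libraries the genotypes overlapped. The M means were 117.8 ± 14.2 and 81.8 ± 0.71 CPM (SD, n = 3 each), a log2 fold change of -0.53 (SE 0.12) with an edgeR adjusted p of 0.434 and a DESeq2 adjusted p of 0.0729.

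Naip5 (ENSMUSG00000071203, chromosome 13, 100211739 to 100246323, minus strand) was at 52.8, 55.3 and 70.2 CPM in the same 3 M_WT libraries. In M_KO_5944, M_KO_5645 and M_KO_5642 it was at 29.0, 40.5 and 22.5 CPM. F_WT, at 28.3 CPM, and F_KO, at 27.2 CPM, both lay in the M_KO range, so that the high libraries were the M_WT ones and not the WT ones. M_KO held 51.6% of the M_WT mean (59.4 ± 9.40 against 30.7 ± 9.15 CPM, SD, n = 3 each), a log2 fold change of -0.96 (SE 0.24). The edgeR adjusted p was 0.434 and the DESeq2 adjusted p 0.0429, the lone member call of either tool in this comparison. An exact two-sided permutation test gave p = 0.1 for Naip5 and for Naip2, the smallest p that 3 against 3 libraries allow. Any gene whose M groups do not overlap has this p, so it adds nothing to the lack of overlap. With genotype and letter fitted over all 8 libraries, the log2 fold change of Naip5 was -0.73 (SE 0.24, edgeR adjusted p = 0.484, DESeq2 adjusted p = 0.173).

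Naip6, the neighbouring flagellin sensor and nearest relative of Naip5, had the opposite order. It lies at 100281121 to 100317674 on the same strand (ENSMUSG00000078942), averaged 72.9 ± 7.33 CPM in M_WT and 137.1 ± 57.6 CPM in M_KO (SD, n = 3 each). Its log2 fold change was 0.91 (SE 0.29, edgeR adjusted p = 0.474), and the M groups did not overlap. F_WT was at 97.2 CPM and F_KO at 105.6 CPM. M_KO_5645 was highest, at 202.3 CPM, against 64.4 to 116.3 CPM elsewhere. The coding sequences of Naip5 and Naip6 were 97.0% identical over 4209 bases, while Naip5 was 92.2% identical to Naip1 and 90.2% to Naip2. To show how few bases separate the pair, the 120-base coding stretch with the most differences is given, with the 11 bases that differ in capitals. It covers coding bases 7 to 126 in both genes, at chr13:100246074-100246193 (exon 1 of the Naip5 transcript) and chr13:100316426-100316545 (exon 2 of the Naip6 transcript), minus strand, GRCm38, from GENCODE M21.
Naip5: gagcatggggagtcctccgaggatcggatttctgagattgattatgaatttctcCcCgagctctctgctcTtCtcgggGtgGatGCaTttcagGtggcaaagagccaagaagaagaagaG
Naip6: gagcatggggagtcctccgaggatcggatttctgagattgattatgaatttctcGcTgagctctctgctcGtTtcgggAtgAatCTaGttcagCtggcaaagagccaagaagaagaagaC
The median number of differences over 2815 such stretches was 3, and 4.40% of them were identical. Of the 5105 stretches of 100 bases in the Naip5 transcript, 329 (6.44%) occurred unchanged in a Naip6 transcript. Counts of the 2 genes are therefore uncertain to the extent that the counting could move reads between them.

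The share of Naip5 in the counts of Naip5 and Naip6 needs no scaling between libraries. It was 40.8%, 46.2% and 47.5% in M_WT_5643, M_WT_6258 and M_WT_6255. It was 19.9%, 16.7% and 19.5% in M_KO_5944, M_KO_5645 and M_KO_5642, 22.6% in F_WT and 20.5% in F_KO. The 3 M_WT libraries stood apart from the other 5: their lowest 95% interval (exact Clopper-Pearson, counting error only) began at 38.9%, and the highest of the others, that of F_WT, ended at 24.1%. The M_WT mean was 44.8 ± 3.54% and the M_KO mean 18.7 ± 1.76% (SD, n = 3 each). The exact two-sided permutation p was 0.1, the smallest possible, which follows from the lack of overlap. This ratio was chosen after the values of both genes were seen. The summed level of the 2 genes was 132.3 ± 14.3 CPM in M_WT and 167.8 ± 66.7 CPM in M_KO, and overlapped (exact permutation p = 0.7). Without M_KO_5645 (242.8 CPM) the 2 remaining M_KO libraries were at 145.3 and 115.3 CPM.

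**Figure D4:**
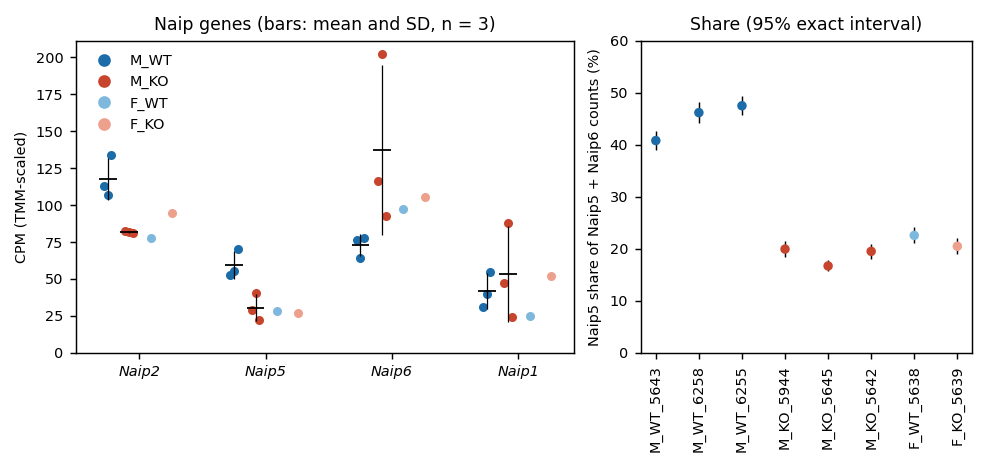
Left, TMM-scaled CPM (vertical) of 4 Naip genes by group, 1 point per library, with mean and SD for groups of 3. Right, share of Naip5 in the counts of Naip5 and Naip6 (vertical, percent) for each library with its 95% exact interval: the M_WT libraries lie at 40.8% to 47.5% and the other 5, F_WT included, at 16.7% to 22.6%.

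The other Naip rows were read beside these. Naip1, a sensor of the needle protein of bacterial secretion systems, was at 41.99 ± 12.2 CPM in M_WT and 53.1 ± 32.5 CPM in M_KO (SD, n = 3 each), with F_WT at 25.1 CPM, F_KO at 51.8 CPM and M_KO_5645 highest at 88.2 CPM. Naip3, an unprocessed pseudogene, also had its highest level in M_KO_5645, 16.5 CPM, and a log2 fold change of 1.19 (SE 0.54, edgeR adjusted p = 0.543). The largest step between neighbouring libraries was 1.18-fold for Naip2, 1.40-fold for Naip5 and 1.60-fold to 1.86-fold for Naip1, Naip6 and Naip3, so none of these 5 was on in some animals and off in others. Naip3-ps1, a further unprocessed pseudogene between Naip5 and Naip6, was at 2.47, 1.97 and 2.08 CPM in M_WT_5643, M_WT_6258 and M_WT_6255 and at 1.30, 2.48 and 0.671 CPM in M_KO_5944, M_KO_5645 and M_KO_5642. F_WT had 0.689 CPM and F_KO 1.06 CPM of it, and the M groups overlapped. A list of 17 interferon-stimulated genes summed to 1431.6 to 3397.9 CPM in M_WT and 297.2 to 1706.3 CPM in M_KO. The F libraries were at 597.8 CPM (F_WT) and 562.4 CPM (F_KO). The summed level of 6 dendritic cell markers was 23.8, 41.98 and 28.99 CPM in M_WT_5643, M_WT_6258 and M_WT_6255. The M_KO libraries lay at 12.25 to 15.9 CPM, without overlap. F_WT was at 21.9 CPM and F_KO was at 18.9 CPM. Of the 6 markers edgeR called 0 (0.022% of all genes) and DESeq2 called 1 (1.21% of all genes). Among these markers, Cd209a was at 15.3 and 14.5 CPM in M_WT_6258 and M_WT_6255 and at 0 to 0.155 CPM elsewhere. The lack of overlap rests on Cd209a: without it, the sum of M_WT_6255 falls below that of M_KO_5642. The summed macrophage markers also did not overlap between the M groups, at 17270.6 to 25458.8 CPM in M_WT and 14458.8 to 16873.9 CPM in M_KO. The F libraries, at 21228.2 CPM (F_WT) and 18229.5 CPM (F_KO), lay in the M_WT range. Lyz2 made up most of this sum, at 12879.9 to 20616.2 CPM in M_WT and 9084.21 to 11559.7 CPM in M_KO. Csf1r went the other way without overlap, at 1234.05 to 1555.84 CPM in M_WT and 1826.89 to 2072.54 CPM in M_KO. For the other macrophage markers the M groups overlapped. Of all single genes tested, 16.2% did not overlap between the M groups. The part of these 3 lists in the Naip2 and Naip5 levels was not tested.

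Nlrc4, which Naip proteins activate, did not follow Naip2 or Naip5. It was at 32.4, 22.3 and 25.5 CPM in M_WT_5643, M_WT_6258 and M_WT_6255 and at 40.7, 29.3 and 24.5 CPM in M_KO_5944, M_KO_5645 and M_KO_5642. F_WT was at 26.6 CPM and F_KO at 30.2 CPM, inside the M range. The groups overlapped, with a log2 fold change of 0.23 (SE 0.23, edgeR adjusted p = 0.768) that went to 0.01 without M_KO_5944. The gene lies on chromosome 17 (ENSMUSG00000039193, 74425438 to 74459142, minus strand).

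Nlrp3 (ENSMUSG00000032691, chromosome 11, 59541568 to 59566956, plus strand) varied as much within the groups as between them. It was at 470.3, 345.7 and 411.0 CPM in M_WT_5643, M_WT_6258 and M_WT_6255, and at 322.9, 426.3 and 261.0 CPM in M_KO_5944, M_KO_5645 and M_KO_5642. F_WT was at 351.2 CPM and F_KO at 401.9 CPM. M_KO held both the lowest library and the second highest, and the groups overlapped. The M means were 409.0 ± 62.3 and 336.7 ± 83.5 CPM (SD, n = 3 each), a log2 fold change of -0.29 (SE 0.21, edgeR adjusted p = 0.687). In the F pair the log2 difference was 0.19.

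Pycard (ENSMUSG00000030793, chromosome 7, 127989708 to 127993867, minus strand) was at 48.6, 75.4 and 57.6 CPM in M_WT_5643, M_WT_6258 and M_WT_6255. In M_KO_5944, M_KO_5645 and M_KO_5642 it was at 54.0, 36.7 and 50.8 CPM, so M_WT_5643 lay among the M_KO libraries. F_WT was at 69.0 CPM and F_KO, the lowest library, at 27.3 CPM. The M difference was -0.36 on the log2 scale (SE 0.22, edgeR adjusted p = 0.621), and the F difference was -1.34 between 1 library each. Over all 8 libraries the log2 fold change of Pycard by genotype was -0.60 (SE 0.23, edgeR adjusted p = 0.516, unadjusted p = 0.0337). The 2 lowest Pycard libraries, F_KO and M_KO_5645, had the highest summed level of the 6 B cell markers, 626.7 and 580.3 CPM. Elsewhere the sum was 124.1 to 387.6 CPM. Next in this sum were M_WT_5643 (387.6 CPM), with 48.6 CPM of Pycard, and F_WT (374.6 CPM), with 69.0 CPM. This comparison was not planned, and the part of B cells in the Pycard level was not tested.

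Casp1 (ENSMUSG00000025888, chromosome 9, 5298517 to 5307265, plus strand) was tight in M_WT, at 60.3, 64.3 and 64.0 CPM in M_WT_5643, M_WT_6258 and M_WT_6255. It was at 84.3 CPM in M_KO_5944, the highest library, and at 58.2 and 55.0 CPM in M_KO_5645 and M_KO_5642. F_WT was at 58.9 CPM and F_KO, the lowest library, at 35.6 CPM. The M means of 62.9 ± 2.20 and 65.8 ± 16.1 CPM (SD, n = 3 each) differed by log2 0.06 (SE 0.18, edgeR adjusted p = 0.927), and the sign turned without M_KO_5944 (-0.15).

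Gsdmd (ENSMUSG00000022575, chromosome 15, 75862327 to 75867408, plus strand) varied least of the 10, by 1.41-fold from its lowest to its highest library. It was at 121.2, 97.9 and 106.4 CPM in M_WT_5643, M_WT_6258 and M_WT_6255, and at 137.7, 111.3 and 131.6 CPM in M_KO_5944, M_KO_5645 and M_KO_5642. F_WT was at 99.0 CPM and F_KO at 108.8 CPM. The M means were 108.5 ± 11.8 and 126.9 ± 13.8 CPM (SD, n = 3 each), a log2 fold change of 0.22 (SE 0.14, edgeR adjusted p = 0.627), and the groups overlapped.

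The wider pathway was read from a list of 74 names, of which 70 had a row under that name. Of the 60 rows that are not among the 10 genes, 49 were tested: edgeR called 0 (0.022% of all genes), with 8 at an unadjusted p under 0.05 (9.56% of all genes), and DESeq2 called 2, both lower in M_KO (1.21% of all genes). The fitted value was lower in M_KO for 31 and higher for 18, with a median log2 fold change of -0.08. Over all genes it was lower for 6619 and higher for 7027, with a median of 0.01. The 2 DESeq2 calls were Il1a, encoding interleukin-1α (819.2 ± 305.5 in M_WT and 233.4 ± 139.1 CPM in M_KO; log2 fold change -1.82, DESeq2 adjusted p = 0.0285), and Il1rn, encoding the interleukin-1 receptor antagonist (977.1 ± 232.3 in M_WT and 276.5 ± 98.1 CPM in M_KO, SD with n = 3 each; log2 fold change -1.83, adjusted p = 1.01e-05 by DESeq2). Il1b, a caspase-1 substrate, had a log2 fold change of -1.67 (SE 0.64, edgeR adjusted p = 0.487) and Il18, the other substrate, -0.72. Over all 8 libraries DESeq2 called neither Il1a (adjusted p = 0.101) nor Il1rn (adjusted p = 0.0667). For Il1a all 4 KO libraries lay apart from all 4 WT libraries, as for 5.68% of all genes, while for Il1rn they overlapped. Between the 2 F libraries the log2 difference of KO minus WT was -0.28 for Il1a, 0.27 for Il1rn and 0.998 for Il1b, so Il1rn and Il1b had the higher level in F_KO.

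None of the genes in the next sentences passed edgeR or DESeq2. Of the other sensors, Aim2, which binds DNA, had a log2 fold change of 0.16 and Nlrp10 0.22, while Nlrp6, Nlrp9b and Nlrp12 were too low to be tested. Casp4, the mouse caspase-11 of the non-canonical route, was at 172.0 ± 29.0 CPM in M_WT and 150.2 ± 38.6 CPM in M_KO, and both F libraries lay below these means, at 85.6 CPM (F_WT) and 86.0 CPM (F_KO). Its log2 fold change was -0.20, and that of Casp12 -0.23. Gsdme, a gasdermin cut by caspase-3, was at 9.73 ± 1.68 CPM in M_WT and 5.77 ± 1.41 CPM in M_KO, a log2 fold change of -0.76 (SE 0.25, adjusted p = 0.474 by edgeR), and Ninj1, which ruptures the membrane after pore formation, had -0.16. Among genes that license NLRP3, the ATP receptor gene P2rx7 had a log2 fold change of 0.57 and the channel gene Panx1 -0.66. Among inhibitors Nlrx1 had 0.69, and in the caspase-11 route Irgm1 had -1.18 and Gbp7 -0.77.

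Over all 8 libraries, with genotype and letter as terms, edgeR called 0 of the 10 genes (0.00727% of 13751 genes tested were called) and DESeq2 also 0 (0.874% of all genes). By this fit Naip5 and Pycard, 2 of the 10, had an unadjusted edgeR p under 0.05, where 9.48% of all genes did. None of the 10 separated all 4 KO from all 4 WT libraries, where 5.68% of all genes did.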

How the data were processed

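RNA of 8 libraries was analysed from the deposited tables. Per the labels, a NEBNext Ultra kit was used for library preparation. Per the submitters' processing notes, DESeq2 (1.16.1), featureCounts (1.5.0-p3) and HISAT2 (2.0.5) were among the tools, and mm10 and GRCm38 are the builds. Strand setting and the treatment of multiply matching reads were not given in these sources, which matters for the Naip and Nlrp1 copies. The deposited counts are whole numbers of reads on each gene, not normalized by the authors, and the deposited FPKM values are counts scaled by the authors to gene length and library size. The authors' deposited comparison gives a signal scaled from the counts, log2 fold changes and p-values, of which the p-values alone are quoted. The number of value columns without a sample or group was 0.

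Counts were tested with edgeR 4.0.16 (quasi-likelihood, TMM scaling, its default filter on genotype) in R 4.3.3, with Benjamini-Hochberg adjustment over all genes and a threshold of 0.05; DESeq2 1.42.0 and limma 3.58.1 were alternatives. CPM is TMM-scaled over the 8 libraries. Standard errors come from the quasi-likelihood F statistic, and F differences from log2 CPM with a prior count of 2. A count of 0 allows up to 3 counts. The tests were tried on simulated data that did not model genes on in some animals and off in others, and no result here rests on that trial. The 10 genes and the gene lists were chosen with earlier results of these data known. All 10 genes are named, with pathway genes called by either tool and up to 2 per role with the largest fold change, up to 3 genes most alike each on and off gene, and its neighbours within 1 Mb. Gene coordinates in the files equal those of GENCODE M21 for all 10 genes. The pathway names Naip4, Naip7, Dfna5 and Irgb10 had no row.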

Additional observations from a re-analysis of the deposited data

How the results depend on the processing

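The count of 0 of the 10 genes called by edgeR in M_KO against M_WT was 1 with DESeq2 (Naip5), and between 0 and 1 when 1 M library was left out; the 1 was Nlrp1c-ps without M_WT_5643, whose fitted fold change then rests on a group at 0. It was 0 with RLE scaling, both filters, limma on log2(FPKM + 1) and a fit of all 8 libraries. The stricter filter removed Nlrp1a. The pathway list, at 0 calls with the 10 genes included, had 3 with DESeq2 (Naip5, Il1a, Il1rn), 1 without a filter on low counts (Il1rn, adjusted p = 0.0451) and 0 to 1 with 1 library left out. Over all 8 libraries the count of 0 was the same in every alternative run. Of the 2 on and off genes, 1 remained, Nlrp1c-ps, with a step of 8-fold, with a pseudocount of 0.5 and with FPKM in place of CPM, and both remained with CPM by total count. Casp1, never called, changed sign in 3 fits. In M its log2 fold change ran from -0.15 (without M_KO_5944) to 0.17 with 1 library left out, and over 8 libraries from -0.32 to 0.060, being 0.060 without F_WT_5638 and 0.058 without F_KO_5639. The cause was not tested. The Naip5 share differed by -26.1 percentage points between M_KO and M_WT, by -28.4 with FPKM and by -28.1 to -24.8 with 1 M library left out, alternatives chosen after seeing the data. No paired analysis was possible because the groups share no animal number. Depth limits Nlrp1a most, at 44 counts or fewer per library.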

Other observations

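Near Nlrp3, the gene 2610507I01Rik (chromosome 11, 59199836 to 59202385, 339.2 kb from Nlrp3) had the split of Nlrp1a and Nlrp1c-ps. It was at 0 and 0.051 CPM in M_WT_6258 and M_WT_6255 and at 0.673 to 4.02 CPM in the other 6 libraries, while Nlrp3 was at 345.7 and 411.0 CPM in those 2 libraries and at 261.0 to 470.3 CPM in the others. Beside the Naip cluster, Ocln, encoding the tight junction protein occludin, lay 250.2 kb from Naip5 and was at 0.513 CPM in M_KO_5642 and at 4.10 to 18.2 CPM in the other 7 libraries. The dendritic cell marker Cd209a was at 15.3 and 14.5 CPM in M_WT_6258 and M_WT_6255, the 2 libraries without Nlrp1a and Nlrp1c-ps, and at 0 to 0.155 CPM in the other 6. These 3 genes were chosen after their values were seen, and no explanation was tested.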
